A study of Arabidopsis thaliana with 12 samples.

Results

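Chromatin regions that became more accessible at the 3′ ends of genes in *h3.3ko* seeds are described here, at ends where only 1 strand carries a gene terminus. ATAC-seq uses the transposase Tn5, which inserts sequencing adapters mainly into DNA that is not wrapped in nucleosomes. From nuclei sorted out of mature *Arabidopsis* seeds, the study listed the regions whose accessibility differed between Col, the WT accession, and *h3.3ko*, which lacks H3.3 because its 3 H3.3 genes *HTR4*, *HTR5* and *HTR8* are mutated (*htr4* and *htr5* by CRISPR-Cas9, *htr8* by a T-DNA insertion). A region was taken when its midpoint lay more than 500 bp from every protein-coding transcription start site (TSS) and within 500 bp of a protein-coding transcription end site (TES) on one strand only. This gave 1116 of the 3436 increased regions, out of 6714 listed regions in all, and 3278 of the listed regions were decreased. They belonged to 1107 of 27444 protein-coding genes, or 4.03%, and 9 gene ends held 2 regions each.

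Both groups were mature seeds stored for 3 months after harvest, with 2 libraries per genotype. The *h3.3ko* seeds were segregants of *h3.3ko* mother plants heterozygous for a *pHTR5::HTR5* rescue transgene, and they were picked by the absence of the mCherry seed marker. Whole seeds were chopped, and no separation of embryo nuclei from those of other seed tissues is described. The lists give 1 row per region and no value per library. The spread between libraries and the genotype labels could therefore not be checked from them, and no test was made. The read numbers per library were not used here. Membership rests on the authors' call of higher accessibility in *h3.3ko*, so the higher accessibility is a description and not a result. Counts and medians are given with their range over the 5 chromosomes and beside the same values for other regions or genes. Intervals in brackets are 95% Wilson intervals and cover counting error only.

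H3.3 is the variant of histone H3 that is deposited outside DNA replication. In plant and animal genomes it is found over transcribed genes, and in *Arabidopsis* it is known to lie densely towards their 3′ ends. In mature seeds, the study found H3.3 enriched around the starts of genes as well as at their 3′ ends. The 3′ end of a gene carries the signals for cleavage and polyadenylation of the transcript, which in plants are loose A-rich and U-rich stretches with AAUAAA and UGUA as the best-known elements. It is also where RNA Pol II leaves the template, often with a further gene not far downstream.

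For a few of the ends, the last 30 bases of annotated transcript are shown. They were read from the TAIR10.1 RefSeq sequence on the gene strand and run 5′ to 3′ up to the TES, with AATAAA and TGTA in capitals, the DNA letters of the 2 signals above. In the last 30 bases, AATAAA was present at 6.23% of the 1107 ends and at 6.55% of all protein-coding genes. In the last 150 bases, TGTA was present at 72.5% and 68.1%. Of the 72 ends chosen by rule to be named, 61 held neither signal in the 30 bases, 5 held AATAAA and 6 held TGTA. The genes are *AT5G22470*, chr5:7451020-7451049, plus strand; *ABI5*, chr2:15204659-15204688, minus strand; *HUB2*, chr1:20612620-20612649, plus strand; *SESA3*, chr4:13612534-13612563, plus strand; *CAND1*, chr2:697678-697707, plus strand; and *RPS4*, chr5:18321764-18321793, minus strand. The first 4 are of the common kind with neither signal in these 30 bases, *CAND1* has AATAAA and *RPS4* has TGTA.
AT5G22470: ttggaaagaagtttatgataattgttcatc
ABI5: atttggaatgacacaatgcgcaagacaaaa
HUB2: cctcaaaacaatatagaattatgtgaacaa
SESA3: gcgtacggttagctaaactaaagtaaaaat
CAND1: tatttgtcaAATAAActaatgagtcagctt
RPS4: cTGTAagactccttttcagtTGTAcgaaga

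The regions lay mainly on the gene side of the TES. The midpoint was before the TES in 847 of 1116 regions, or 75.9% (73.3% to 78.3%), and past it in 269, or 24.1%. The share past the TES was between 21.9% and 26.7% on the single chromosomes. On a scale with negative distances inside the gene, the median midpoint was at -263.5 bp from the TES, with quartiles at -405 bp and -20.3 bp. Counted in steps of 100 bp from the innermost to the TES, the midpoints numbered 295, 193, 166, 118 and 75. Past the TES, each step held between 46 and 68. The gene side was thus filled most densely at its inner edge, and the counts fell towards the TES.

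**Figure D1:**
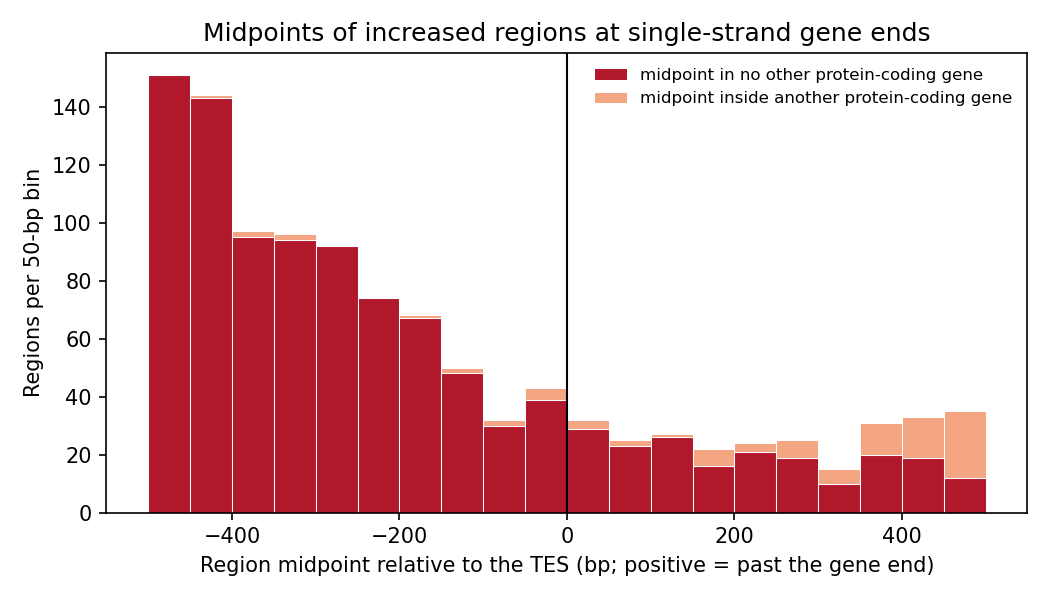
Distance of the midpoint of each of the 1116 regions to the TES in bp (x axis, positive past the gene end) against the number of regions per 50-bp bin (y axis); light bars are midpoints inside another protein-coding gene. The 847 midpoints before the TES crowd towards the inner limit, and the light share is highest far past the TES.

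The inner limit of the rule cuts through a continuous distribution. Among all increased regions whose midpoint lay inside a gene and away from every TSS, 371 were 400 to 500 bp before the end of that gene and 319 were 500 to 600 bp before it. The count then fell to 269, 211, 119 and 100 over the next 400 bp. *MAP3KA* and *AT3G24080* held the regions just beyond the inner limit, both at 500.5 bp before the TES. *SPD1* at 500 bp, *AT1G13880* at 499 bp and *GSL10* at 498.5 bp before the TES were the innermost regions kept. On the side of the start sites, the regions of *AT3G14172* and *AT1G21680* were 500.5 bp and 502 bp from the nearest TSS, and those of *AT1G50730* and *CTR1* were left out at 499 bp. On the side of the other strand, *AT3G61960* and *COL9* were 500.5 bp and 501.5 bp from an opposite TES, and *SGR4* and *AT3G13940* were left out at 499.5 bp and 497.5 bp.

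The rule leaves less room past the TES than before it, because a downstream TSS or opposite TES excludes midpoints there. At the gene ends with no TSS and no opposite TES within 1000 bp, a subset chosen after the values were seen, both sides were open. These held 563 regions, of which 412 had their midpoint before the TES and 151, or 26.8%, past it.

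The TES was covered by 719 regions, or 64.4% (61.6% to 67.2%, and 61.4% to 66.2% on single chromosomes). This majority held for the midpoint rule with a window of 500 bp. The share was 87.9% with 300 bp, but 47.1% with 750 bp and 37.9% when any overlap with the window was taken in place of the midpoint. Another 300, or 26.9%, ended inside the gene, and 97, or 8.69%, lay wholly past it. Regions across the TES had a median width of 904 bp, of which a median of 645 bp lay before and 258 bp past the TES. Those inside the gene and those wholly past it were narrower, with medians of 490 bp and 484 bp. Which class a region fell into follows in part from its width, since a wide region within 500 bp of the TES reaches it more easily.

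**Figure D2:**
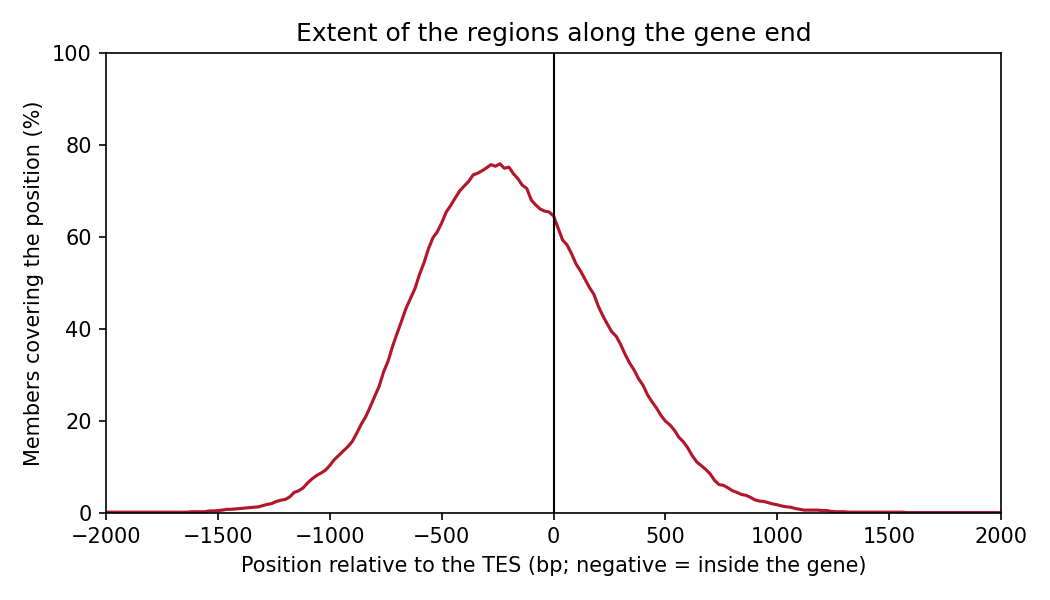
Share of the 1116 regions that cover each position (y axis, percent) by position relative to the TES in bp (x axis, negative inside the gene). The curve is highest at 75.9%, at 240 bp before the TES, stands at 64.5% at the TES, and falls to 10.3% at 1000 bp before and 1.70% at 1000 bp past it.

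In annotation terms, the regions joined coding sequence, 3′ UTR and downstream DNA. At least 1 bp of 3′ UTR of the longest transcript was covered by 953 regions, or 85.4%, coding sequence by 793, or 71.1%, an intron by 526, or 47.1%, and DNA past the TES by 816, or 73.1%. Coding sequence and the TES were both covered by 520 regions, and only 20 lay wholly in a 3′ UTR. Of 878838 bp in all, 31.4% were past the TES, 29.2% in 3′ UTRs, 28.1% in coding sequence and 11.1% in introns. A single protein-coding gene was overlapped by 968 regions, 2 or more by 88 and none by 60. A non-coding gene was overlapped by 89 regions, and for 60 of them it was on the opposite strand.

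The widest region was that of *AT5G22470*, which encodes poly ADP-ribose polymerase 3, an enzyme of the family that marks sites of DNA damage. It spanned chr5:7449032-7452104 (TAIR10), 3073 bp, with 2018 bp before and 1055 bp past the TES on the plus strand. Next was *ABI5*, the bZIP transcription factor through which abscisic acid holds back germination, at chr2:15203404-15206206. Its region was 2803 bp wide, with 1548 bp before and 1255 bp past the TES, and it took in 964 bp of coding sequence, 321 bp of 3′ UTR and 263 bp of intron. A KH domain protein gene, *AT2G25970*, held the third at 2520 bp. Past the TES, these 3 regions crossed gaps of 453 bp, 955 bp and 334 bp and overlapped a neighbouring protein-coding gene. At the other extreme, the region of *CIP1* was 151 bp wide and lay wholly in its 3′ UTR. Those of *AT3G01345* and *RHD1*, an enzyme of UDP-galactose synthesis needed for root hairs, were 157 bp and 177 bp wide.

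The regions best centred on the TES were those of *RH36*, an RNA helicase gene, with its midpoint 0.5 bp past the TES, and of *MSRB2*, a methionine sulfoxide reductase gene, and *ILL3*, of the auxin amidohydrolase family, at 3 bp and 3.5 bp before it. The region of *RH36* covered 377 bp on either side and reached into an overlapping gene. Centring of this kind was uncommon, with 75 midpoints within 50 bp of the TES. The farthest midpoints past the TES were those at *GILP*, at 499.5 bp, and at *AT3G51950* and *5-FCL*, both at 497.5 bp. The region at *AT3G51950* still covered its TES, whereas those at *GILP* and *5-FCL* did not. *AT1G36730* was the single gene with such a region that could be matched to the paper by locus code or annotated symbol. It was covered over 1064 bp before and 109 bp past its TES. Genes without an annotated symbol could not be matched by symbol. Among these was the histone gene *AT4G40030*, with a region of 351 bp wholly before the TES. Its annotated product, a histone superfamily protein, does not tell whether it is one of the H3.3 genes mutated in *h3.3ko*.

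Where a gene end held 2 regions, one lay inside the gene and the other past or across the TES in the 5 ends examined one by one. At *PHYC*, a phytochrome photoreceptor gene, a region of 465 bp lay wholly in coding sequence and a second of 614 bp began 65 bp past the TES. *HB-1*, a homeodomain gene, had 770 bp inside and 234 bp past. *MEE62* had 520 bp inside its 3′ UTR and 312 bp past, and *AT1G75760* had 259 bp inside and 889 bp past. At *AT1G47970* the outer region, 451 bp wide, covered the TES. Clustering was otherwise limited: 112 of the 1116 regions had another increased region within 1 kb, and the median gap to the nearest one was 11322 bp.

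The width of the regions was intermediate among the increased regions. The median was 709 bp (interquartile range 490 to 1011 bp, 671 to 773.5 bp on single chromosomes), with 285 regions wider than 1 kb and 16 wider than 2 kb. Increased regions within 500 bp of TESs on both strands had a median of 739 bp, those near a TSS 604 bp, those elsewhere inside genes 891 bp, and those elsewhere outside genes 524 bp. Decreased regions were narrower, with a median of 497 bp. The chromosome range of the convergent ends, 670 to 813 bp, enclosed that of the single-strand ends, so these classes were not separated by width.

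**Figure D3:**
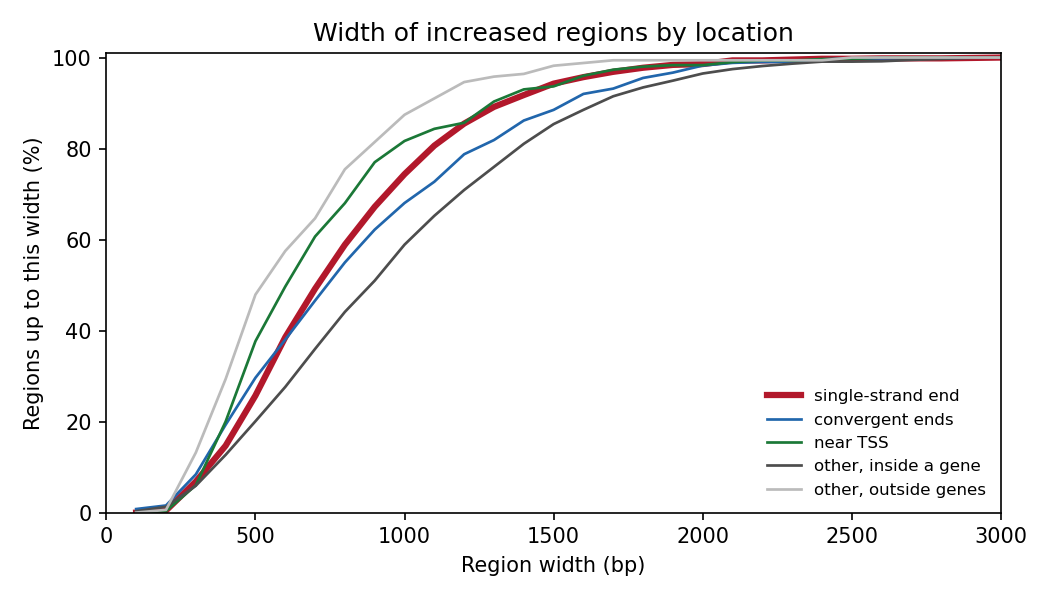
Cumulative share of increased regions (y axis, percent) up to a given width in bp (x axis), by location of the midpoint. The curve of the single-strand ends (thick line, median 709 bp) has its median between that of regions outside genes (524 bp) and that of other regions inside genes (891 bp), and the curves cross at the narrowest widths.

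The sequence under the regions was AT-rich and poor in CG dinucleotides, which was not particular to them. The median GC content was 37.8% (37.6% to 37.9% on single chromosomes), below the 40.8% of increased regions elsewhere inside genes (40.5% to 41.1%) and the 38.9% at convergent ends (38.7% to 39.4%), and above the 34.5% of those outside genes (33.5% to 35.6%). These chromosome ranges did not overlap. The range of increased regions near a TSS, with a median of 38.6% (37.88% to 39.0%), overlapped that of the single-strand ends. Decreased regions had a lower GC content, with a median of 36.2%. The ratio of observed CG dinucleotides to the number expected from the C and G content was 0.656 (0.645 to 0.682). It was 0.602 at convergent ends, 0.593 elsewhere inside genes, 0.703 near a TSS, 0.778 outside genes and 1.02 in decreased regions. A low ratio is known from DNA with long-term cytosine methylation, but no methylation values were used here. By bisulfite sequencing of mature seeds, the study found lower CG methylation in *h3.3ko* over its increased regions as a whole. For the single-strand ends alone this was not tested. GC content differed by side: regions with their midpoint before the TES had a median of 38.2%, and those past the TES 35.7%.

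Single regions departed far from these medians. Among the genes chosen by rule, the lowest ratio was 0.0757 in the region past *GILP* and the highest 1.59 in the region past *MEE62*. The 30 bases at the middle of each are shown on the gene strand with CG in capitals, for *GILP* at chr5:4203571-4203600 and for *MEE62* at chr5:18575242-18575271, both on the minus strand. They were picked after the values were seen.
GILP: ttctttgctataaatgtctaatcatgcctc
MEE62: agaatcCGagatatcatatcctCGcCGttt
The first holds 0 CG dinucleotides and the second 3. The regions behind them were 436 bp and 312 bp wide, and their GC contents of 35.3% and 32.4% differed far less than the ratios.

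To set the gene ends against others, ends whose TES was more than 500 bp from every TSS and every opposite TES were taken, since only these could hold such a region at the TES itself. There were 12271 of them, and 805, or 6.56%, had a region. In the 500 bases before the TES the median ratio was 0.647 at ends with a region (0.621 to 0.679 on single chromosomes) and 0.707 at the 11466 others (0.700 to 0.714). Past the TES the ratios were 0.728 and 0.731, with a chromosome range of 0.654 to 0.800 at ends with a region. GC content before the TES was alike, at 37.2% and 37.0%, and past it was 32.2% (32.2% to 32.4%) against 31.2% (30.8% to 31.4%). Among genes of at least 2 kb, a length limit chosen after the values were seen, the ratio before the TES was 0.632 (0.585 to 0.668) against 0.665 (0.647 to 0.689), and these ranges overlapped. Against all genes of at least 2 kb, whatever lay near their ends, it was no lower: the ratio was 0.630 for the 934 genes with a region and 0.625 for all 14444.

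**Figure D4:**
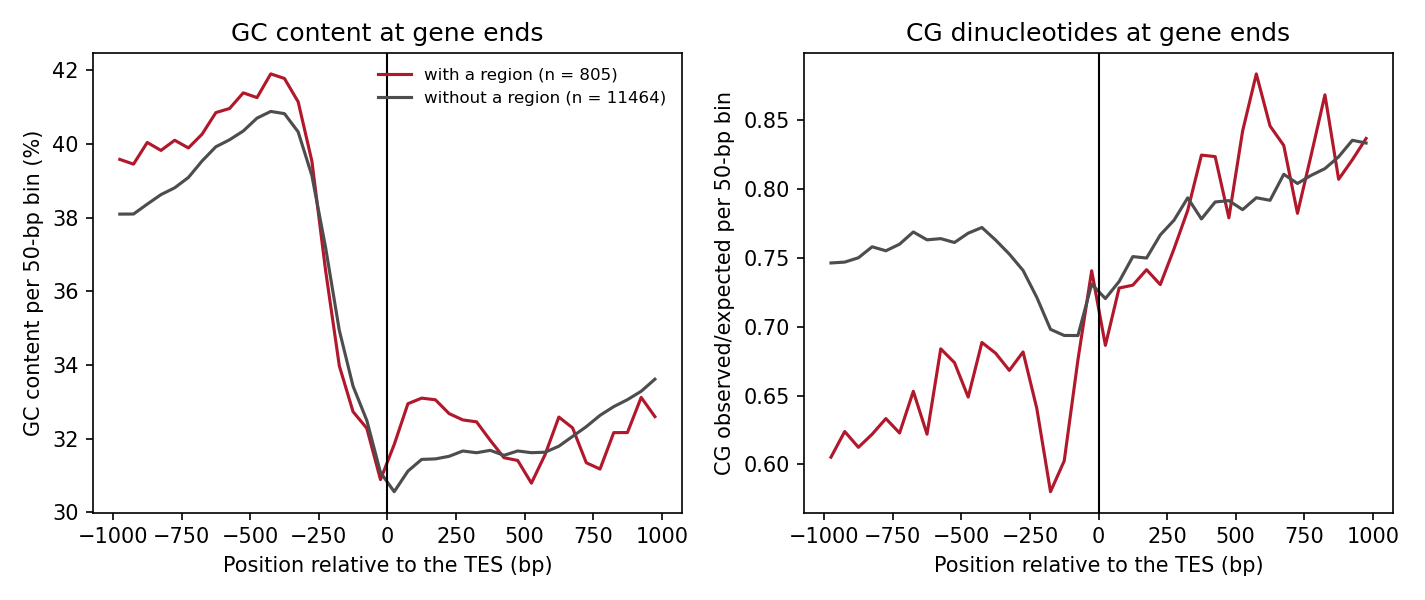
GC content in percent (left) and observed/expected CG ratio (right) in 50-bp bins (y axes) by position relative to the TES in bp (x axes), for gene ends with a region and for other ends that could hold one. At 200 to 150 bp before the TES the CG ratio is 0.580 with a region and 0.698 without. It is 0.605 and 0.746 at 1000 to 950 bp before the TES, and 0.740 and 0.731 in the last 50 bp. The genes differ in length, with medians of 2879 bp with a region and 1924 bp without.

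The known 3′ end signals differed little between ends with and without a region. AATAAA on the gene strand occurred in the last 50 bases before the TES at 9.03% of the 1107 ends (7.06% to 12.1% on single chromosomes) and at 8.70% of the 805 that could be compared, against 9.92% of the others. TGTA on the gene strand, in the last 150 bases, was found at 73.2% (65.5% to 78.6%) against 67.6% (66.3% to 68.2%), which overlapped. Within 500 bases of the TES on either strand, the G-box core CACGTG was present at 12.7% against 10.4%, the telobox-like AAACCCTA at 7.70% against 9.52%, and GAGAGA at 59.5% against 56.9%. All were exact matches, and matches of different motifs could share letters. Annotated 3′ UTRs were longer at ends with a region, with medians of 304 bp (286 to 318 bp) and 234 bp (226 to 240 bp).

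Genes with a region were long and had many exons. Their median length was 2956 bp (2780.5 to 3043 bp on single chromosomes) against 2078 bp (1995 to 2104 bp) for all protein-coding genes. The longest transcript had a median of 7 exons against 4, and 5.96% of the genes had a single exon against 19.7%. Among comparable ends, the share with a region was 0.539% for genes under 1 kb, 2.79% for 1 to 2 kb, 9.55% for 2 to 3 kb, 12.5% for 3 to 4 kb and 13.0% from 4 kb upwards. In genes under 1 kb the rule bars part or all of the last 500 bp, which then lie within 500 bp of the gene's own TSS. From 1 kb upwards that stretch is open. Among genes of at least 2 kb, where 6.47% had a region, the median was 8 exons against 7 for all such genes, and the 3′ UTR was 305 bp (285 to 318 bp) against 270 bp (268 to 273 bp).

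The gene downstream was usually on the same strand. The next gene past the TES was in tandem at 62.9% of the 1107 ends, convergent at 29.2%, and overlapped the TES at 7.95%. The rule favours tandem neighbours, since an opposite TES nearby excludes a region. Among all protein-coding genes the shares were 50.2%, 29.3% and 20.4%. Among the comparable ends the tandem share was 65.5% with and 65.9% without a region, so the direction of the neighbour did not set the ends apart. The gap to a tandem neighbour was also similar there, with medians of 1704 bp and 1584 bp.

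Regions past the TES fell into 2 kinds by what lay under them. The rule bars midpoints in a gene that lies wholly past the TES. The TSS of a same-strand gene, or the TES of an opposite-strand gene, would then lie within 500 bp. Any other gene at the midpoint therefore has to overlap the TES. In 74 of the 269, the midpoint was inside another protein-coding gene that overlapped the TES, in each case on the opposite strand. Their median GC content was 41.3% and their CG ratio 0.560, closer to increased regions inside genes (40.8% and 0.593) than to the other 195, which lay in no protein-coding gene and had 34.4% and 0.697. Of these 195, 136 had a tandem and 59 a convergent neighbour, and 135 still covered the TES. *CAB1*, a light-harvesting chlorophyll a/b-binding protein gene, belongs to the first kind. Its region was 1500 bp wide with 1231 bp past the TES, and the midpoint lay inside *NRPA2*, which encodes a large subunit of RNA Pol I.

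A decreased region at the start of the same gene was common. It was found, with its midpoint within 500 bp of the TSS, at 243 of the 1107 genes, or 22.0% (16.5% to 23.8% on single chromosomes), where 10.3% of all protein-coding genes had one. Among genes of at least 2 kb the shares were 22.5% and 13.1%. Genes with increased regions at convergent ends or elsewhere in the gene body were similar, at 20.1% and 23.2%. Both lists come from the same comparison of the same libraries, so this is a description. The TSSs of tandem neighbours downstream did not share it: 4.02% had a decreased region, against 5.99% of the tandem neighbours of all genes, but the rule keeps regions away from a near TSS. Another increased region in the gene body was present in 6.23% of the genes, against 9.54% of all protein-coding genes. Among those of at least 2 kb it was present in 6.64% against 15.2%. At the comparable ends the direction depended on length. The shares there were 6.83% with and 5.83% without a region, but 7.27% and 10.9% among genes of at least 2 kb. The count leaves out the single-strand region at the gene's own end, whereas regions at convergent ends are counted for other genes.

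By function, the ends with a region came from many gene classes. Of 17 lists built from RefSeq product and note text, 9 had a share above the 4.03% of all genes. The highest were protein phosphatases with 12 of 121 genes, or 9.92% (5.76% to 16.5%), RNA binding and splicing with 34 of 396, or 8.59% (6.21% to 11.8%), and translation factors and tRNA synthetases with 18 of 224, or 8.04% (5.14% to 12.3%). Chromatin genes had 6.50% (3.84% to 10.8%). The lowest were ribosomal proteins with 6 of 345, or 1.74%, pentatricopeptide repeat proteins with 5 of 265, or 1.89%, and seed storage and late embryogenesis genes with 6 of 244, or 2.46%. The lists differ in gene length. Among genes of at least 2 kb, 6 lists were above 6.47%, and 5 of them were among the 9. The sixth was seed storage and late embryogenesis, with 3 of only 13 genes of that length, or 23.1%. Phosphatases had 11.2%, RNA binding and splicing 11.8% and translation 10.8%, whereas ubiquitin and proteasome genes went from 4.52% (70 of 1549) to 10.4% (60 of 578).

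**Figure D5:**
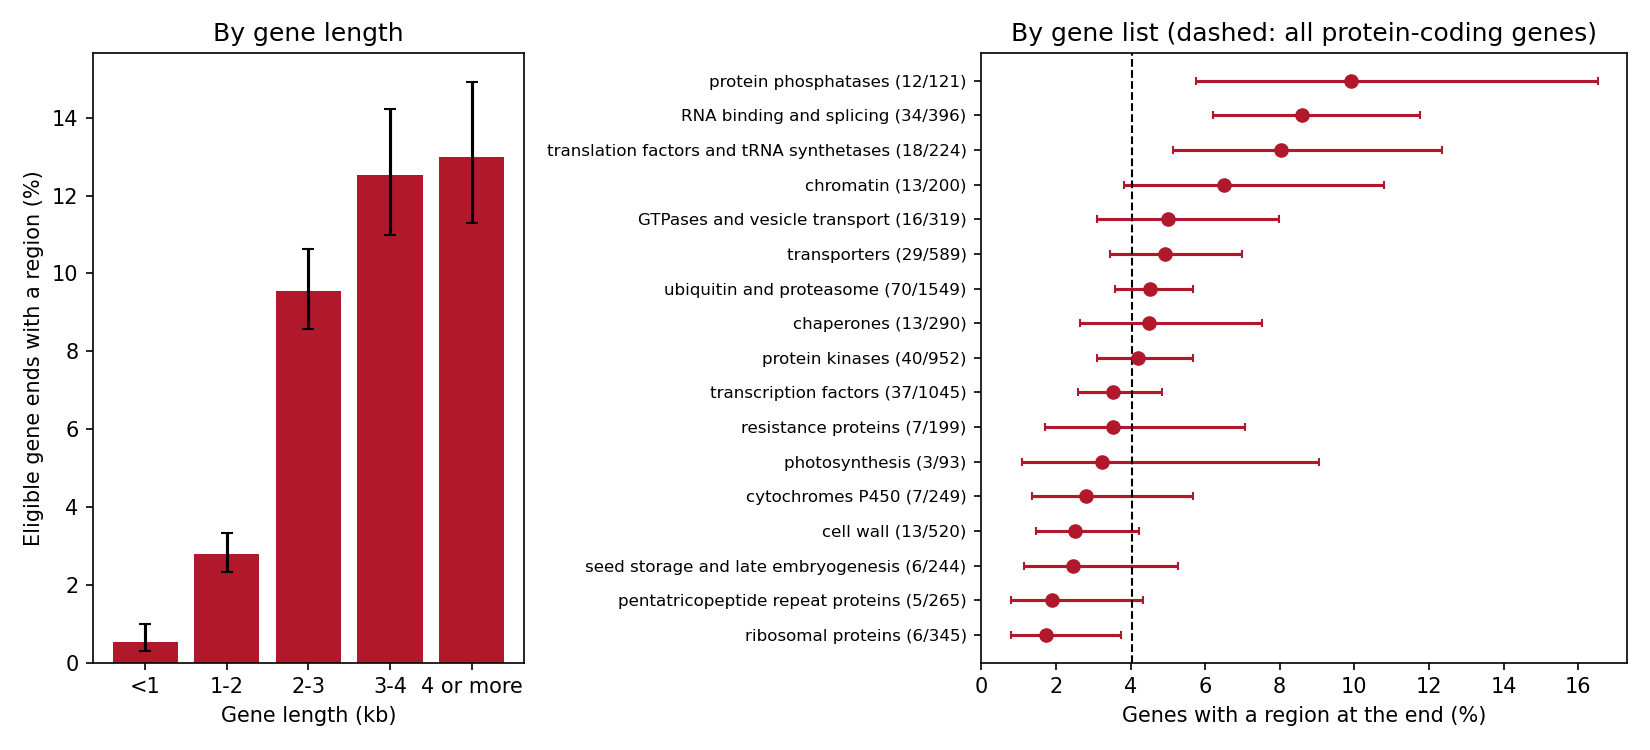
Left, share of comparable gene ends with a region (y axis, percent) by gene length in kb (x axis); right, share of genes with a region (x axis, percent) for each of the 17 lists, with the number of genes in brackets and all protein-coding genes as the dashed line at 4.03%. Bars and whiskers are shares with 95% Wilson intervals for counting error; the shares rise with length from 0.539% to 13.0%.

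In the transcription factor list, 37 of 1045 genes, or 3.54%, had a region. Beside *ABI5*, these included *ICE1*, a bHLH factor of cold response, with 827 bp before and 502 bp past its TES, and *NAC060*, a NAC factor that limits abscisic acid sensitivity of seedlings, with 836 bp before and 492 bp past.

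Among the phosphatases, the regions of *B ALPHA*, a regulatory subunit of protein phosphatase 2A, and *PP2CG1* were 1793 bp and 995 bp wide. That of *AHG1*, a seed phosphatase that acts against the abscisic acid response, covered 538 bp before and 474 bp past its TES. In the kinase list (40 of 952, 4.20%), *KEG*, whose protein is also the ubiquitin ligase that removes ABI5, had a region of 1400 bp, with 1103 bp before and 297 bp past. *PBS1*, a kinase guarded by an immune receptor, had one of 1155 bp. *RPS4* and *ADR1*, immune receptor genes of the resistance list (7 of 199, 3.52%), had 1081 bp across the TES and 768 bp wholly inside.

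RNA processing and translation were represented by *SCL33*, an SR-type splicing factor, with 1097 bp before and 140 bp past, and by *EMB2770*, with 1151 bp before and 290 bp past. The region of *EMB2770* lay over 1095 bp of 3′ UTR and no coding sequence. *EIF4A1*, the helicase of translation initiation, had a region of 1658 bp that included 819 bp of coding sequence. *ELF5A-3* had 956 bp before and 1078 bp past, an extent past the TES that exceeded the extent before it.

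In the ubiquitin list, *CAND1*, which exchanges the substrate adaptors of cullin ligases, had a region of 2341 bp at chr2:696237-698577, and *UBP20*, a ubiquitin protease, one of 2060 bp with 1229 bp past the TES. The *CAND1* region extended 870 bp past the TES and overlapped the next gene, after a gap of 235 bp. *UBC10*, a ubiquitin-conjugating enzyme, had 695 bp of intron under its region of 1517 bp. *HUB2*, a ligase that attaches ubiquitin to histone H2B and is known for its role in seed dormancy, was covered over 725 bp before and 473 bp past. Its partner *HUB1*, chosen after its values were seen, had a region of 249 bp wholly inside. *HD2C*, a plant-specific histone deacetylase, and *SDG16*, a SET domain protein, had 580 bp and 1039 bp, both across the TES.

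Chaperone genes (13 of 290, 4.48%) included *cpHsc70-1* of the chloroplast and *HSP60-2*, a chaperonin, with 1258 bp and 1083 bp. Transporters (29 of 589, 4.92%) included *KUP10* of the potassium transporter family with 1154 bp, 921 bp of it coding, and *INT1*, an inositol transporter, with 1084 bp. For vesicle transport (16 of 319, 5.02%), the region of *RAB18*, with 632 bp past and 146 bp before the TES, lay mostly downstream, whereas that of *VTI1B*, a SNARE, lay mostly inside.

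The 6 regions of the seed storage and late embryogenesis list had a median width of 640 bp, and the widest, of 1555 bp, was at *AT2G42560*, a late embryogenesis abundant protein gene. *CRU2*, a cruciferin, the 12S storage globulin, had 402 bp that ended 112 bp before the TES, and *SESA3*, a 2S albumin, 452 bp across it. The list also held lipid transfer protein genes such as *XYP1*, which are not storage proteins. *ECP63*, a late embryogenesis abundant protein gene that the text patterns missed and that was chosen after its values were seen, had a region of 2349 bp with 1568 bp past the TES. In the photosynthesis list (3 of 93, 3.23%), *ELIP1* and *ELIP2*, paralogs that protect young chloroplasts from light, both had one, of 712 bp and 1238 bp. Cytochromes P450 (7 of 249, 2.81%) and cell wall genes (13 of 520, 2.50%) were below the share of all genes, and *EXPA15*, an expansin, had 748 bp before and 169 bp past its TES.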

How the data were processed

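ATAC-seq was made for 12 libraries of 6 conditions, of which the deposited lists concern the mature seeds of Col and *h3.3ko*, 2 libraries each. Per the study's methods, reads were trimmed with fastp 0.20.1 and mapped to TAIR10 with Bowtie2, organelle reads and duplicates (Picard 2.24.0) were removed, MACS2 peaks found in both replicates were merged over genotypes, and regions were called by deepTools scores with a fold and an adjusted p-value threshold. Which regions could be called depends on depth, which was not used here, and on that merging, which sets their widths. The authors deposited start and end positions per region, used here as coordinates, and a log2 fold change per region. That log2 column holds the authors' own comparison and was not used. The libraries of imbibed seeds and seedlings have no values in the files and were not analysed here.

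Positions were joined to the TAIR10.1 RefSeq sequence and annotation of the 5 nuclear chromosomes, and all 1107 genes matched by locus code. As a check of the coordinates, a TES was found within 500 bp of the midpoint for 54.2% of increased regions, but for 25.9% and 26.3% once they had been displaced by 1000 bp up or down the chromosome. TSS and TES are the ends of the gene feature. 3′ UTR, coding sequence and exons are those of the longest coding transcript. All coordinates are 1-based. The function that selects regions was tested on simulated data: it took 200 of 200 regions planted at gene ends and 0 of 200 planted at TSSs. The gene ends used had no TSS and no opposite TES nearby, so selection at crowded ends was not tested.

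Gene lists were made by text patterns on the RefSeq product and the first clause of the note. The regions and lists were chosen with earlier results of these data known. Named genes were the 3 widest, narrowest, nearest, farthest past and farthest inside, and those next to each limit. Genes matched to the paper by locus code or annotated symbol and up to 5 ends with 2 regions were added. So were up to 3 genes with a symbol per list, widest first. Of all these, values are printed for a part. Alternatives covered the window, overlap in place of midpoints, the gene set, the TES used, a minimum width, 1 region per end, each chromosome left out, motif windows, the overlap minimum and, after the values were seen, other genes at the midpoint, gene length and free space at the end. Python 3.11.15, numpy 2.4.6, scipy 1.17.1 and matplotlib 3.10.9 were used.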

Additional observations from a re-analysis of the deposited data

How the results depend on the processing

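No paired analysis was possible because the lists carry no value per library. Leaving out each chromosome in turn left the share of midpoints past the TES between 23.3% and 24.97%, the share covering the TES between 64.1% and 65.6% and the median width between 707 and 719 bp. Covering the TES went from a majority to a minority of regions with the 750 bp window and with overlap in place of midpoints. With a window of 300 bp there were 720 regions, 33.8% with the midpoint past the TES, 87.9% covering it, 36.9% GC and 55.3% tandem neighbours. With 750 bp, 17.8% were past, 47.1% covered the TES, the width was 757 bp and GC 38.7%. With overlap in place of midpoints, the values were 16.4%, 37.9%, 755 bp and 39.0%, with 66.1% in tandem. Regions of at least 300 bp covered the TES in 68.0%. The following 2 settings were chosen after seeing the data. Without midpoints in another gene, 19.0% were past the TES, with 37.5% GC and 68.3% in tandem. At the 563 regions of ends free on both sides, 26.8% were past, with 37.1% GC and 69.5% in tandem. AATAAA was found in 6.23% for 30 and in 16.1% for 100 bases. With an overlap of at least 50 bp, 80.6% of regions took in 3′ UTR, 66.7% coding sequence, 44.1% intron and 66.3% DNA past the TES. With only comparable ends, 8 of the 17 lists were above the background. In all these settings most midpoints stayed on the gene side.

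The lists hold only called regions, and an end without a region is not shown to be unchanged. Widths follow the merged peaks of both genotypes. Nuclei of embryo and other seed tissues cannot be told apart.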
